A study of Mus musculus with 12 samples.

Results

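The 10 genes described here are mitochondrially encoded respiratory chain genes, chosen by their symbols on the mitochondrial chromosome from the 19312 genes in the deposited table. They are mt-Nd1, mt-Nd2, mt-Nd4, mt-Nd5 and mt-Nd6 of complex I, mt-Cytb of complex III, mt-Co1, mt-Co2 and mt-Co3 of complex IV, and mt-Atp6 of complex V. Their RNA was measured in 12 male C57BL/6N mice aged 25 days, of which 3 were vehicle-fed WT (WT-Veh), 3 memantine-fed WT (WT-Mem), 3 vehicle-fed Shank2-KO (KO-Veh) and 3 memantine-fed Shank2-KO (KO-Mem). KO mice carry a homozygous deletion in Shank2, which encodes a scaffold protein of excitatory synapses, and were reared with WT pups. Memantine, an NMDA receptor blocker, was fed at 20 mg/kg, 2 times daily, between days 7 and 21 after birth in 0.1% saccharin, which was also the vehicle. The tissue is whole brain by its labels and forebrain, without cerebellum and underlying brain stem, by the methods. Each brain gave its own library of poly-A RNA, and its total over all genes was 30373849 to 31199251 normalized counts. All p-values below measure the spread between these mice.

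Mitochondrial DNA encodes a small set of hydrophobic core subunits of the respiratory chain, together with the rRNAs and tRNAs needed to translate them. Complexes I, III, IV and V are built from these subunits and from a larger number made from nuclear genes, while complex II is wholly nuclear-encoded. The mitochondrial genome is transcribed into long precursors from both strands, which are cut at the tRNAs that lie between the mRNAs. Neurons draw most of their ATP from this chain, and its transcripts are abundant in brain RNA.

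The listed value of several of these genes depends on how reads were shared with nuclear copies of mitochondrial DNA, so the sequences are shown first. A block of mouse chromosome 1 holds pseudogenes that match a run of mitochondrial genes, in the same order. In GENCODE M21 (GRCm38), 6 of them are in the table and lie on the minus strand between chr1:24612407 and 24616197. Windows of 60 bases from the start of the mitochondrial transcript (for mt-Co1, from the point where its copy begins) and from the annotated copy are printed 5′ to 3′, with bases that differ between the pair in capitals.
mt-Co2: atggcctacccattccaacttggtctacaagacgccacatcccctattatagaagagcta
Gm28661: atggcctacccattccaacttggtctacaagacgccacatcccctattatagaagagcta
mt-Atp6: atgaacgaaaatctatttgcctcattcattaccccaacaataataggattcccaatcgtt
Gm10925: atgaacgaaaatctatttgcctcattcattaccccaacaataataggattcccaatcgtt
mt-Co3: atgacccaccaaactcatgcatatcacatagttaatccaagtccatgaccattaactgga
Gm28437: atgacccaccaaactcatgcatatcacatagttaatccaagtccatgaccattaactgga
mt-Co1: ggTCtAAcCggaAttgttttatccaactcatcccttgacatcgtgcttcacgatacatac
Gm29216: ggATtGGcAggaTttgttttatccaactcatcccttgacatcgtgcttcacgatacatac
The first 3 pairs hold no capitals because they are identical, and they remain so over their whole aligned length: 681 of 681 bases for mt-Co2 and Gm28661, 678 of 678 for mt-Atp6 and Gm10925, and 783 of 783 for mt-Co3 and Gm28437. Gm29216 matches the last 492 bases of mt-Co1 at 486 positions. Counted from 1 at the 5′ end of mt-Co1, its 6 differences are T1056A, C1057T, A1059G, A1060G, C1062A and A1066T, all within the first bases of the aligned stretch.

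Salmon, the program used to assign reads, matches reads through words of 31 bases. Of all such words in mt-Co2, 100% also occur in other genes of the table, and the share is 99.9% for mt-Co3, 99.5% for mt-Atp6 and 63.6% for mt-Co1. Of the mt-Co1 words, 29.6% occur in its chromosome 1 copy Gm29216 and 45.2% in Gm13340, a pseudogene on chromosome 2. For mt-Nd1, mt-Nd2, mt-Nd4, mt-Nd5, mt-Nd6 and mt-Cytb the share in other genes of the table is 0%. The 10 members therefore divide into 6 whose listed values share no such word with another listed gene and 4 whose listed values do. A limit on the former is that 62.8% of the words of mt-Nd4 also occur in Gm28439, a pseudogene beside the others on chromosome 1 (chr1:24611535 to 24612410) that is in the annotation but is not among the listed genes. The share of words in annotated transcripts outside the table was 16.8% for mt-Nd5, 13.5% for mt-Nd2, 7.36% for mt-Nd6, 6.55% for mt-Cytb and 0% for mt-Nd1. Reads of the mitochondrial gene and of an identical copy cannot be told apart, so the listed value of each of the 4 genes is uncertain, and it is given below both as listed and with its chromosome 1 copy added.

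The sums of each pair showed how much the split varied. The normalized count (estimated reads per gene divided by DESeq2 normalization factors) of mt-Co2 was 23321, 11574 and 69068 (WT-Veh), 27203, 23025 and 16304 (WT-Mem), 25493, 72485 and 20782 (KO-Veh) and 19437, 14260 and 26836 (KO-Mem). The third WT-Veh mouse and the second KO-Veh mouse stood far above the other 10, and every pair of groups overlapped. With Gm28661 added, the same mice had 136721, 162225 and 181154 (WT-Veh), 136115, 133932 and 148270 (WT-Mem), 123677, 137911 and 132343 (KO-Veh), and 122540, 132956 and 132428 (KO-Mem). The 3 KO-Veh mice then lay close together, and the share of the pair assigned to mt-Co2, a copper-binding core subunit of cytochrome c oxidase, ranged from 7.13% to 52.6% over the 12 mice.

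For mt-Co3 (ENSMUSG00000064358, chrM:8607 to 9390), another core subunit of cytochrome c oxidase, the listed normalized counts were 76320, 35232 and 31733 (WT-Veh), 72374, 64409 and 65057 (WT-Mem), 58539, 31175 and 63085 (KO-Veh), and 53871, 62420 and 67257 (KO-Mem). The 3 low mice came from both genotypes, and 2 of them were the mice with the high mt-Co2 values. With Gm28437 added the values were 158004, 163427 and 190641 (WT-Veh), 149291, 145516 and 162417 (WT-Mem), 137564, 149202 and 132765 (KO-Veh), and 130252, 136297 and 141516 (KO-Mem). All WT-Veh mice were then above all mice of both KO groups.

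For mt-Atp6 (ENSMUSG00000064357, chrM:7927 to 8607), which forms part of the proton channel of ATP synthase, the listed normalized counts were 29913, 21686 and 36114 (WT-Veh), 28348, 28981 and 31675 (WT-Mem), 12421, 25351 and 26334 (KO-Veh), and 11708, 16904 and 19569 (KO-Mem). All 3 KO-Mem mice were below all 6 WT mice. The sums with Gm10925 were 119013, 125007 and 171283 (WT-Veh), 115820, 112950 and 120013 (WT-Mem), 104324, 119848 and 115420 (KO-Veh), and 111081, 117840 and 114365 (KO-Mem). On this scale the WT-Mem and KO-Mem groups overlapped, and the share of the pair assigned to mt-Atp6 was 10.5% to 26.4%.

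**Figure D1:**
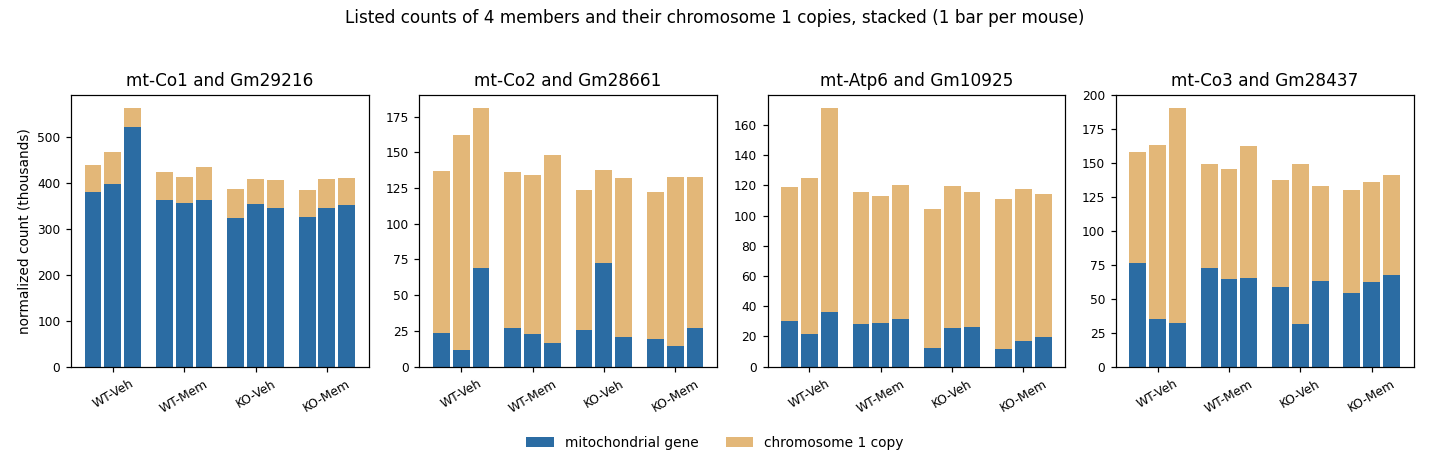
Stacked bars, 1 per mouse, give the normalized count (axis from 0, in kilo-counts) listed for mt-Co1, mt-Co2, mt-Atp6 and mt-Co3 in blue and for the identical or near-identical chromosome 1 copy in tan, with mice ordered by group and replicate. The blue part of mt-Co2 is 72485 in the second KO-Veh mouse and 20782 in the third, while the whole bars of these mice are 137911 and 132343.

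The spread within groups shrank when copies were added. Averaged over the 4 groups, the coefficient of variation was 54.0% as listed and 7.37% with the copy for mt-Co2, 25.9% and 6.56% for mt-Co3, 23.0% and 8.43% for mt-Atp6, and 6.93% and 5.64% for mt-Co1. For the 6 members with no listed copy it was between 3.22% (mt-Nd5) and 12.0% (mt-Nd2). Among other listed genes with mitochondrial words, Gm13340 and Gm13341 on chromosome 2 had means of 25.7 and 13.1, Gm43743 on chromosome 3 had a mean of 4.97 and shared 9 words with mt-Atp6, and Cep295 on chromosome 9 shared 4 words with the tRNA gene mt-Ty and none with a member.

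These genes were among the most abundant in the table. By mean normalized count mt-Co1 ranked 1 of 19312, mt-Cytb 3, mt-Nd4 6 and mt-Nd5 11, and the copies Gm28661 and Gm10925 ranked 5 and 9. In WT-Veh mice the 10 members as listed made up 3.48 ± 0.52% (SD, n = 3) of the summed normalized counts, against 3.04 ± 0.06% in WT-Mem, 2.91 ± 0.20% in KO-Veh and 2.86 ± 0.15% in KO-Mem. With the 4 copies added the shares were 4.81 ± 0.64%, 4.18 ± 0.13%, 3.99 ± 0.20% and 3.97 ± 0.15% in the same order. The third WT-Veh mouse held 5.54% and set the spread of its group, the other WT-Veh mice being at 4.33% and 4.57%. In bulk tissue, fewer mitochondria-rich cells and less mitochondrial RNA per cell cannot be told apart.

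Per kilobase of gene and with copies added, the members covered a 10.4-fold range in mean level. The order, in normalized counts per kb averaged over 12 mice, was mt-Co1 (278190 ± 31042, SD), mt-Co2 (204712 ± 24384), mt-Co3 (190996 ± 21660), mt-Atp6 (177064 ± 24658), mt-Cytb (117097 ± 14554), mt-Nd1 (82046 ± 10945), mt-Nd4 (79111 ± 6481), mt-Nd5 (47057 ± 1988), mt-Nd2 (45276 ± 9761) and mt-Nd6 (26643 ± 3357). The complex IV subunits thus had the highest mean levels and the complex I subunits the lowest, with mt-Atp6 and mt-Cytb between. Neighbours in the order were not all separated: mt-Nd1 was above mt-Nd4 in 7 of 12 mice and mt-Nd5 above mt-Nd2 in 8, whereas mt-Co1 exceeded mt-Co2, mt-Atp6 exceeded mt-Cytb and mt-Nd2 exceeded mt-Nd6 in all 12. mt-Nd6, the lowest, is the member on the minus strand (chrM:13552 to 14070), and the other 9 lie on the plus strand. The library was made from poly-A RNA, so these levels also depend on how completely each mRNA is polyadenylated, which was not tested.

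**Figure D2:**
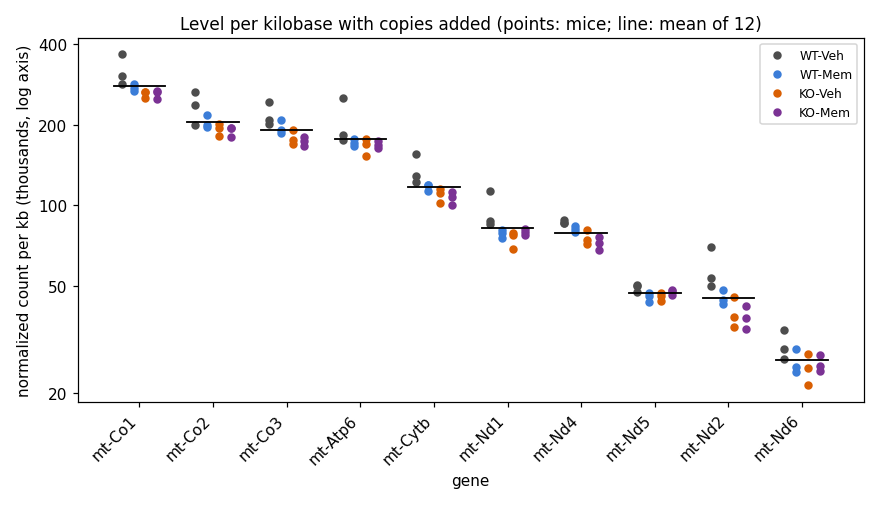
Each point is a mouse, coloured by group, and shows the normalized count per kb (log axis, in kilo-counts) of a member with its chromosome 1 copy added, and the black line is the mean of 12 mice. Levels fall from 278190 per kb for mt-Co1 to 26643 for mt-Nd6, and the third WT-Veh mouse is the highest point for every gene.

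Because the libraries captured poly-A tails, the 3′ ends of a few members are shown. In this genome the stop codon can be left for the tail to complete, and 3 members are annotated so. The last 30 bases of mt-Nd4, mt-Cytb and mt-Co3 end in a lone T, in capitals, whereas mt-Nd2 is annotated with a full stop codon, also in capitals. The annotated end of mt-Nd2 at chrM:4951 lies past the start of the tRNA gene mt-Tw at 4950. That of mt-Nd1 at 3707 likewise lies past the start of mt-Ti at 3706. Where these mRNAs are cut was not tested.
mt-Nd4: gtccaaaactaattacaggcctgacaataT
mt-Cytb: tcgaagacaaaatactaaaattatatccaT
mt-Co3: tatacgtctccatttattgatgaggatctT
mt-Nd2: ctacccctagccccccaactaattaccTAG

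The question of how genotype and early memantine relate to these transcripts was addressed with the 6 comparisons of the study and with tests over all 12 mice, which ask about genotype with treatment held fixed, about memantine with genotype held fixed and about their interaction. As a check on the labels, Shank2 had a normalized count of 7940 ± 546 in WT mice and 2914 ± 193 in KO mice (n = 6 each), with no overlap. Differences are log2 fold changes of the normalized count plus 1 with their SE from limma, and a gene is called at an adjusted p under 0.05 (Benjamini-Hochberg) over all genes tested.

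Over both treatments, 4 of the 10 members as listed were called, all lower in KO mice, where 5.91% of all 17655 genes tested were called lower and 49.1% had a negative difference. These were mt-Nd4, mt-Nd2, mt-Atp6 and mt-Cytb. With copies added 4 members were again called lower, against 5.94% of genes tested, but mt-Co3 took the place of mt-Atp6, and all 10 members had negative log2 fold changes with a median of -0.18. As listed the median was -0.17 with 8 members lower. Under quantile normalization it was -0.01, where 4 members were higher, mt-Co1 was fixed at 0 and the others were lower. mt-Nd2 and mt-Atp6 were called lower there. That scaling fixes the value at each rank, so it cannot show a difference of a top-ranked member that keeps its rank.

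mt-Nd2, a subunit of the proton-pumping membrane arm of complex I (ENSMUSG00000064345, chrM:3914 to 4951), had normalized counts of 51990, 55889 and 72538 (WT-Veh), 50423, 46022 and 44555 (WT-Mem), 36467, 47226 and 39785 (KO-Veh), and 35930, 39342 and 43793 (KO-Mem). All 3 KO-Mem mice were below all WT mice, while the second KO-Veh mouse lay within the WT-Mem range. Its mean was 53569 ± 10157 in WT and 40424 ± 4360 in KO mice (SD, n = 6 each), a log2 fold change of -0.39 ± 0.09 (SE, limma adjusted p = 0.017), so it fell by 23.9%. This was the member with the largest called difference whose listed value shares no sequence with another listed gene.

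mt-Nd4, also of the membrane arm (ENSMUSG00000064363, chrM:10167 to 11544), had 118889, 118614 and 121656 (WT-Veh), 115426, 112188 and 109722 (WT-Mem), 99232, 111101 and 102516 (KO-Veh), and 93645, 99817 and 105376 (KO-Mem). Among the KO mice only the second KO-Veh mouse exceeded any WT mouse. The fitted difference was -0.19 ± 0.04 (limma adjusted p = 0.015), and the level fell by 12.2% in KO mice. mt-Nd4 and mt-Nd2 stayed past the threshold whichever of the 12 mice was left out, with adjusted p up to 0.044 and 0.048. Both calls depended on the scaling and on the variance model in the following way: quantile normalization, which fixes the value at each rank, left mt-Nd4 at -0.03 (adjusted p = 0.718) and mt-Nd2 called, and limma without a mean-variance trend left mt-Nd4 called and mt-Nd2 at adjusted p = 0.053.

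mt-Cytb, the cytochrome b of complex III (ENSMUSG00000064370, chrM:14145 to 15288), had 139536, 147075 and 178157 (WT-Veh), 135694, 129862 and 136058 (WT-Mem), 116752, 131555 and 126821 (KO-Veh), and 114933, 123106 and 127963 (KO-Mem). All KO mice but the second KO-Veh mouse were below all WT mice. The difference was -0.22 ± 0.06 (limma adjusted p = 0.034), and the level fell by 14.1%, whereas quantile normalization gave 0.01 (adjusted p = 0.849) and limma without a trend an adjusted p of 0.076. It lost the call when any of 7 mice was left out (the second WT-Veh, the first or the third WT-Mem, the first or the third KO-Veh, or the first or the second KO-Mem mouse), with adjusted p between 0.056 and 0.081 and the same direction.

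mt-Atp6 and mt-Co3 changed places with the treatment of the copies. As listed, mt-Atp6 differed by -0.71 ± 0.18 (limma adjusted p = 0.026; lost without any 1 of the WT-Mem mice or without the first or the second KO-Mem mouse, with adjusted p up to 0.061, and without a trend, at 0.070), and with Gm10925 added by -0.15 ± 0.08 (limma adjusted p = 0.224). mt-Co3 differed by 0.00 ± 0.20 as listed (limma adjusted p = 0.997) and by -0.22 ± 0.05 with Gm28437 added (limma adjusted p = 0.021), where it fell by 14.4%. The summed mt-Co3 call was lost without the third KO-Veh mouse (adjusted p = 0.058) or the first KO-Mem mouse (0.052).

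The remaining members were not called on either scale. mt-Co1, the catalytic subunit of cytochrome c oxidase, had listed normalized counts of 380542, 398806 and 522421 (WT-Veh), 363615, 355911 and 362389 (WT-Mem), 324163, 355350 and 346586 (KO-Veh), and 326531, 346732 and 353404 (KO-Mem). All KO mice were below all WT mice on the listed scale. With Gm29216 added it had 439372, 467839 and 564291 (WT-Veh), 424719, 413189 and 436244 (WT-Mem), 387851, 408847 and 407823 (KO-Veh), and 385954, 409601 and 411916 (KO-Mem), again with all KO mice below all WT mice. mt-Co2 was 0.10 ± 0.37 as listed and -0.19 ± 0.06 with its copy (limma adjusted p = 0.061), and mt-Co1 was -0.20 ± 0.07 and -0.18 ± 0.06 (adjusted p = 0.082 and 0.066). mt-Nd1, a membrane subunit of complex I near its quinone site, had 81269, 83948 and 108488 (WT-Veh), 75191, 72050 and 77251 (WT-Mem), 65547, 75524 and 74510 (KO-Veh), and 74143, 77833 and 76462 (KO-Mem). The KO-Veh mice were below all WT-Veh mice, while WT-Mem and KO-Mem overlapped. mt-Nd6, another membrane subunit of complex I, had 13850, 15197 and 17803 (WT-Veh), 13016, 12473 and 15133 (WT-Mem), 11100, 12810 and 14512 (KO-Veh), and 12519, 14409 and 13112 (KO-Mem), with overlap between the genotypes under both treatments. The complex I genes mt-Nd1 at -0.15 ± 0.08 and mt-Nd6 at -0.15 ± 0.08 had adjusted p of 0.202 and 0.226. mt-Nd5, a further proton-pumping subunit of complex I, had 90927, 86448 and 91720 (WT-Veh), 86315, 83773 and 79910 (WT-Mem), 80274, 84146 and 86186 (KO-Veh), and 87822, 87951 and 84521 (KO-Mem). The KO mice were below the WT mice under vehicle, whereas KO-Mem and WT-Mem overlapped. mt-Nd5, which lies between mt-Nd4 and mt-Cytb on the chromosome, differed by the least among members without a listed copy, at -0.02 ± 0.04 (adjusted p = 0.766), with 86516 ± 4421 in WT and 85150 ± 2872 in KO mice.

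**Figure D3:**
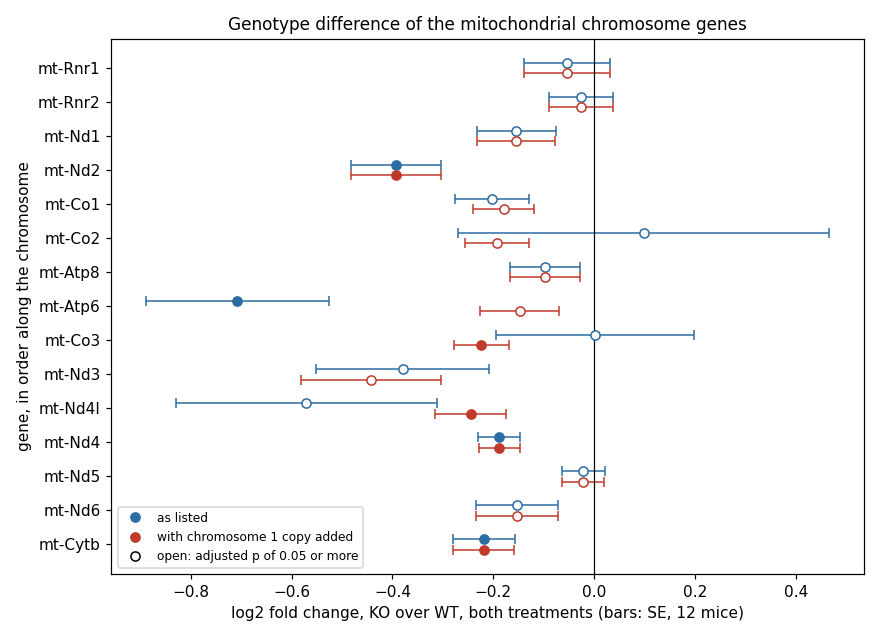
Points give the log2 fold change of KO over WT mice with treatment held fixed (bars, SE, 12 mice) for the 15 mitochondrial chromosome genes in the table, in chromosome order, as listed (blue) and with the chromosome 1 copy added (red), and filled points have an adjusted p under 0.05. The red points of the 13 mRNAs all lie below 0, from -0.44 for mt-Nd3 to -0.02 for mt-Nd5, and the rRNAs lie at -0.05 and -0.03.

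The other genes of the mitochondrial chromosome give a background for these differences. The table holds 15 genes of this chromosome, 13 mRNAs and 2 rRNAs, and none of the 22 annotated tRNA genes. The rRNAs mt-Rnr1 and mt-Rnr2, which are cut from the 5′ part of the same strand, differed by -0.05 ± 0.09 and -0.03 ± 0.06 between genotypes (limma adjusted p = 0.708 and 0.818). Since rRNA reaches a poly-A library only in part, these values are of the captured fraction. Of the remaining mRNAs, mt-Atp8, whose frame overlaps that of mt-Atp6, differed by -0.10 ± 0.07 (adjusted p = 0.364). With copies added mt-Nd4l was called at -0.24 ± 0.07 (adjusted p = 0.040) and mt-Nd3 was not at -0.44 ± 0.14 (adjusted p = 0.053). As listed neither was called, at adjusted p = 0.155 each.

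**Figure D4:**
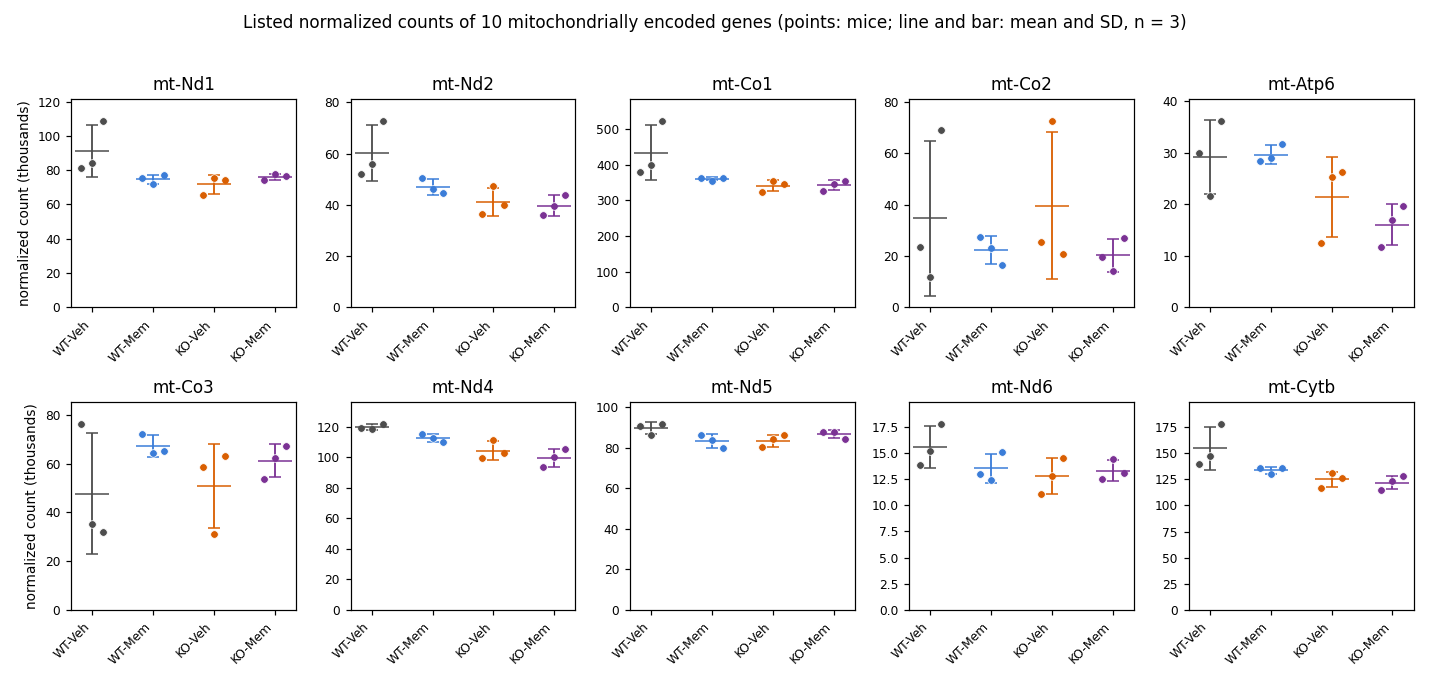
Each panel shows a member, in chromosome order, with the listed normalized count (axis from 0, in kilo-counts) of every mouse as a point and the mean and SD of each group (n = 3) as a line and bar. In mt-Nd1, mt-Nd2, mt-Co1 and mt-Cytb the highest point is the third WT-Veh mouse, whereas in mt-Co2 and mt-Co3 the range within WT-Veh and within KO-Veh exceeds any difference between group means.

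In the comparison of vehicle-treated KO and WT mice (Veh-K/W), the baseline difference between the genotypes, 8 of 10 members were lower as listed and 10 of 10 with copies added, where 49.6% of all genes were lower. No member was called, and 5 genes of 17671 were called in all (0.0113% of all genes were called lower). At an unadjusted p under 0.05, 6 members were lower as listed and 8 with copies, against 7.68% of all genes. The largest of these differences was mt-Nd2 at -0.54 ± 0.13 (limma adjusted p = 0.157), and mt-Nd1, mt-Co1 and mt-Cytb differed by -0.33 ± 0.11, -0.33 ± 0.12 and -0.30 ± 0.10. In 6 members as listed all KO-Veh mice were below all WT-Veh mice, where 10.7% of genes separated in this direction. The median member was -0.29, -0.19 without the third WT-Veh mouse and -0.18 without the first KO-Veh mouse. Without the first KO-Veh mouse an unadjusted p under 0.05 was left to 1 member as listed and 2 with copies, and without the second KO-Veh mouse 53 genes but no member were called.

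After memantine (Mem-K/W) the KO mice were again lower in 8 of 10 members on both scales, with medians of -0.14 as listed and -0.09 with copies, and 49.7% of all genes were lower. No member was called, and 12 of 17646 genes were (0.0397% of all genes were called lower). In 5 members as listed all KO-Mem mice were below all WT-Mem mice, where 13.5% of genes separated in this direction. An unadjusted p under 0.05 was reached by 4 members, all lower, against 10.8% of genes. These were mt-Nd2 at -0.25 ± 0.08, mt-Nd4 at -0.18 ± 0.06, mt-Cytb at -0.14 ± 0.05 and mt-Atp6 at -0.92 ± 0.15 (limma adjusted p = 0.132, 0.134, 0.197 and 0.082), and with copies mt-Atp6 was -0.02 ± 0.05. The listed median was -0.07 without the first KO-Mem mouse and -0.08 without the first WT-Mem mouse, and with copies it was -0.06 without the first KO-Mem or the third WT-Mem mouse. The calls depended on single libraries. Without the third KO-Mem mouse 1911 of 17633 genes were called, 1051 of them lower, and these included mt-Nd2, mt-Nd4 and mt-Atp6. Without the first KO-Mem mouse 6 of 17611 genes were called, 4 of them lower, with mt-Atp6 the only member. mt-Nd1 and mt-Nd5 had positive differences here, 0.03 ± 0.05 and 0.06 ± 0.05.

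Memantine gave no called member within either genotype. In KO mice (KO-M/V) 5 members were higher and 5 lower on both scales. As listed the differences lay between -0.79 ± 0.41 (mt-Co2) and 0.32 ± 0.22 (mt-Co3). When copies were added they lay between -0.07 (mt-Nd4) and 0.09 (mt-Nd1). None of the 17707 genes (0%) was called by limma, and at an unadjusted p under 0.05 there was no member but 4.54% of genes lower and 4.34% higher. Without the third KO-Mem mouse 97 genes were called, again with no member. In WT mice (WT-M/V) 8 members were lower as listed and 10 with copies, with a median of -0.20 on both scales. mt-Nd2 and mt-Nd1 had the largest differences among members without a listed copy, -0.34 ± 0.12 and -0.27 ± 0.11 (limma adjusted p = 0.978 each), and both had an unadjusted p under 0.05, as 2.47% of genes had in this direction. No member was called, and 2 of 17564 genes were, both lower (0.0114%). For 6 members as listed all WT-Mem mice were below all WT-Veh mice, where 5.19% of genes separated in this direction. Without the third WT-Veh mouse the median fell in size to -0.09. As listed mt-Co3 had a difference of 0.61 ± 0.26 with an unadjusted p under 0.05 (1.5% of genes in this direction), while with its copy it was -0.16 ± 0.09. Without the first WT-Veh mouse the listed mt-Co3 was called (limma adjusted p = 0.024), where 3 genes were called in all.

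KO-Mem mice were set against WT-Veh mice (KO-M/WT-V) to ask whether memantine brings KO values to the WT level. As listed 2 members were called, mt-Nd2 at -0.59 ± 0.12 and mt-Atp6 at -0.87 ± 0.20 (limma adjusted p = 0.036 and 0.047), both lower, as were 2.05% of the 17662 genes. In 6 members all KO-Mem mice were below all WT-Veh mice, where 15.6% of genes separated this way. With copies mt-Nd2 was called (adjusted p = 0.035, with 2.17% of genes lower) and mt-Atp6 was not, at -0.26 ± 0.12 (adjusted p = 0.202). Leaving out any of 5 of the 6 mice removed both calls: the number of genes called in all fell from 595 to 54 or fewer without any WT-Veh mouse or without the first or second KO-Mem mouse, and without the third KO-Mem mouse it was 2490, with 4 members lower. Without the first WT-Veh mouse the listed mt-Co3 was called higher at 0.87 (adjusted p = 0.027), whereas with its copy it was -0.38 (adjusted p = 0.064), no member was called and all 10 were lower. The listed median was -0.30, and -0.16 without the third WT-Veh mouse. In the opposite pairing (WT-M/KO-V) no member was called and 4 of 17648 genes (0.0227%) were. mt-Nd2 differed by 0.20 ± 0.09 (adjusted p = 0.558), and the listed mt-Atp6 at 0.55 ± 0.23 was the member with an unadjusted p under 0.05, against 4.71% of genes in this direction. With copies added mt-Atp6 was 0.04 ± 0.06, and mt-Nd2 was the member with an unadjusted p under 0.05. In 3 members as listed (mt-Co1, mt-Co3 and mt-Atp6) all WT-Mem mice were above all KO-Veh mice, where 7.73% of genes separated this way. With copies added the groups overlapped in mt-Co3 and mt-Atp6.

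Over both genotypes memantine gave 9 members lower as listed and 10 with copies, with medians of -0.11 and -0.10, and limma called no member and none of the 17655 genes (0%). An unadjusted p under 0.05 was reached by 1519 genes, 4.97% of those tested being lower and 3.64% higher, among them the listed mt-Nd2 (-0.20 ± 0.09) and mt-Co3 (0.47 ± 0.20). With its copy mt-Co3 had the opposite sign, at -0.10 ± 0.05. Without the third WT-Veh mouse the median was -0.06 as listed and -0.05 with copies. The genotype by memantine interaction, which is the memantine difference in KO mice minus that in WT mice, was positive in 7 members as listed and in all 10 with copies, where its median was 0.19. No member and no gene of the 17655 (0%) was called by limma. An unadjusted p under 0.05 was reached by 840 genes, 2.41% of those tested being positive, and mt-Nd1 was the member among them at 0.36 ± 0.13 (adjusted p = 0.947). Without the third WT-Veh mouse the listed median was 0.09, compared with 0.16 in all mice. These comparisons share groups with those above, so their values are not independent.

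**Figure D5:**
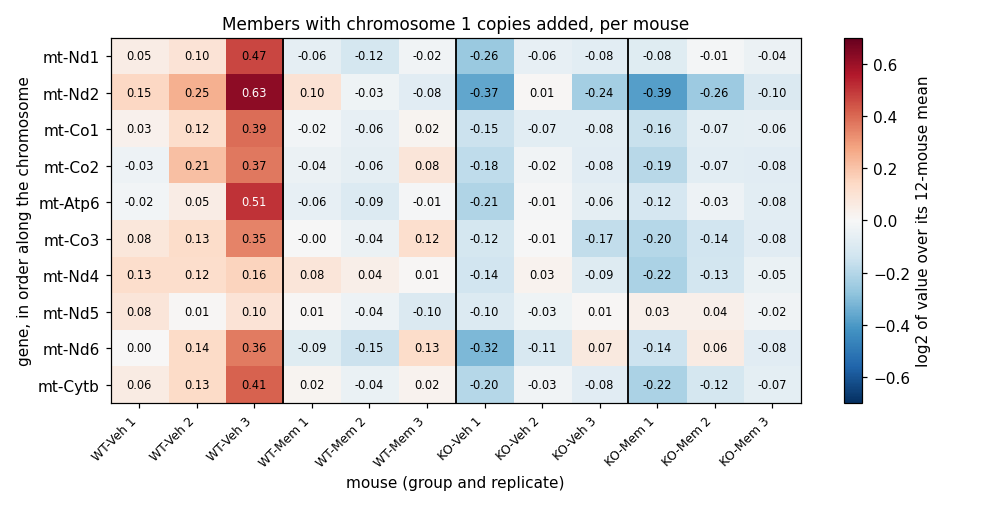
Each cell gives the log2 of a mouse's value (copies added) over the mean of that gene in the 12 mice, with genes in chromosome order and mice by group and replicate, from blue (below) to red (above). The third WT-Veh mouse is above the mean in all 10 genes, and the first KO-Veh and the third KO-Mem mouse are below it in all 10.

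The ordering of mice was alike across members. With copies added, the third WT-Veh mouse was the highest of the 12 in all 10 members, with a median deviation of 0.39 (log2) from the gene's mean, followed by the second WT-Veh mouse at 0.13. The lowest mice were the first KO-Veh mouse (-0.18) and the first KO-Mem mouse (-0.17), which between them held the minimum of 9 members. mt-Nd5 was the exception, since its lowest mouse was the third WT-Mem mouse.

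The third WT-Veh mouse also stood apart in cell type markers. Its summed normalized count of 4 oligodendrocyte markers was 331623, the highest of 12 (the next mouse had 279190), its 4 microglia markers were the highest at 6074, and its 5 neuron markers were the lowest at 141020. Its 4 forebrain markers summed to 6148, rank 11 of 12. For 6 nuclear noncoding RNAs, listed as markers of RNA quality, it had 370187, against 330896 and 307299 in the other WT-Veh mice. The highest sum of these RNAs, 384738, was in the first KO-Mem mouse. Across groups the 5 blood markers summed to 19447 to 26320 in WT-Veh, 13301 to 14809 in WT-Mem, 7567 to 18764 in KO-Veh and 5626 to 12528 in KO-Mem, and the oligodendrocyte sums were 264471 to 331623, 237661 to 279190, 230037 to 246375 and 192753 to 228765. Between genotypes over both treatments 4 of 5 blood, 4 of 4 endothelial, 3 of 4 oligodendrocyte, 2 of 4 astrocyte and 1 of 4 microglia markers were called lower in KO mice, where 5.91% of all genes were, against 0 of 5 neuron and 0 of 4 forebrain markers. Choroid plexus markers (6) had no call. The 4 cerebellar granule neuron markers summed to 1638 in the third KO-Veh mouse and to at most 455 in any other. The part of these markers in the differences of the members was not tested. Without the third WT-Veh mouse 4 members were called in the genotype test as listed. Without both it and the third KO-Veh mouse 3 were (mt-Nd2, mt-Nd4 and mt-Atp6, or mt-Co3 in place of mt-Atp6 with copies added), with mt-Nd2 at -0.30 and mt-Nd4 at -0.18. Over all genes and both directions this test called 1907 genes in all mice, 694 to 2683 with 1 mouse left out and 636 without both of these mice.

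Nuclear genes of the same complexes are considered next. Of 76 nuclear-encoded subunits tested over both treatments, 13 were called lower in KO mice, against 5.91% of all genes, and none higher, and 66 had negative differences with a median of -0.11, compared with a median of -0.18 for the members with copies added. By complex, 4 of 36 subunits of complex I, 0 of 4 of complex II, 3 of 9 of complex III, 1 of 11 of complex IV and 5 of 16 of complex V were called lower. The 3 with the smallest p were Atp5d and Atp5e, the delta and epsilon subunits of the rotor stalk of ATP synthase, at -0.22 ± 0.05 and -0.40 ± 0.09, and the complex I accessory subunit Ndufc1 at -0.39 ± 0.09 (limma adjusted p = 0.016, 0.017 and 0.018). In Mem-K/W 65 of the 76 were lower with a median of -0.16, in Veh-K/W 56 with a median of -0.07, and none was called in either. In WT-M/V 48 of the nuclear subunits had positive differences and 28 negative ones, and none was called.

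The machinery that makes and processes mitochondrial RNA was read from lists as well. Of 55 genes tested for transcription and replication of mitochondrial DNA (20), RNA processing and stability (26) and regulation of biogenesis (10), with Tfb1m in 2 of the lists, 6 were called higher and 3 lower in KO mice, with a median of -0.02, where 4.89% of all genes tested were called higher and 5.91% lower. The share of the list called lower was thus near that of all genes. Genes with called increases were Pnpt1, the mitochondrial polynucleotide phosphorylase that degrades RNA (0.23 ± 0.07, limma adjusted p = 0.042), Pde12, which removes poly-A tails (0.22 ± 0.06), Angel2 (0.22 ± 0.05), Fastkd1 (0.20 ± 0.06), Rpusd3, a pseudouridine synthase (0.40 ± 0.12), and Ppargc1a, the coactivator PGC-1α that drives mitochondrial biogenesis (0.21 ± 0.06, adjusted p = 0.033). Ppargc1a had 1601 ± 94.2 in WT and 1853 ± 179 in KO mice. Called decreases were seen for Mgme1, an exonuclease of mitochondrial DNA replication (-0.39 ± 0.11), Rexo2, which removes short RNA remnants (-0.24 ± 0.07), and Hsd17b10, a subunit of mitochondrial RNase P (-0.24 ± 0.07). The RNA polymerase Polrmt, which transcribes the members, was 0.13 ± 0.10 (adjusted p = 0.380), and its difference was not alike under both treatments. Its normalized counts were 1192, 1224 and 913 (WT-Veh), 1407, 1334 and 1558 (WT-Mem), 1564, 1410 and 1336 (KO-Veh), and 1239, 1409 and 1316 (KO-Mem), so that the WT-Veh mice lay below all others. It differed by 0.38 ± 0.11 in Veh-K/W, 0.38 ± 0.12 in WT-M/V and -0.12 ± 0.09 in Mem-K/W, with an interaction of -0.50 ± 0.15 (limma adjusted p = 0.211, 0.978, 0.459 and 0.947). All of these but Mem-K/W had an unadjusted p under 0.05, and none was called. Its partner Tfam was -0.12 ± 0.08 (adjusted p = 0.336), the elongation factor Tefm 0.20 ± 0.12 (0.272), and the mRNA-stabilizing pair Lrpprc and Slirp 0.07 ± 0.05 (0.404) and -0.20 ± 0.10 (0.208). None of the 14 genes named here was called in the other comparisons.

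Some nuclear genes followed the mean deviation of the members as listed closely over the 12 mice. Among 14219 genes with a mean of at least 50, the highest Pearson correlations belonged to Natd1 (0.94), Tmem127 (0.94), Ikbkb (0.92), Jpt2 (0.91), Gm10419 (0.90), Kcne1l (0.90), Slc25a23 (0.90), Szrd1 (0.89), Capn2 (0.89) and Pvt1 (0.88). Slc25a23 is a calcium-sensitive carrier of the inner mitochondrial membrane. These are descriptions of likeness over mice of 4 groups. Without the third WT-Veh mouse Ikbkb and Gm10419 had ranks 3 and 2 among all genes compared, and Slc25a23 had rank 141. With copies added to the members, the correlations of the 10 genes lay between 0.67 (Gm10419) and 0.90 (Jpt2).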

How the data were processed

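Poly-A RNA libraries from 12 mouse brains were sequenced by the authors. Per the labels, reads were assigned to transcripts with Salmon 1.1.0 and normalized with DESeq2 1.26.0 (R 3.6.2). The annotation release is not given in the sources used here. The deposited values are a signal rather than raw counts: estimated counts per gene divided by DESeq2 normalization factors, which cannot be turned back into whole reads.

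All fits used R 4.3.3 and limma 3.58.1. Genes averaging 10 or more over the compared mice were tested on log2(value + 1) with limma-trend and Benjamini-Hochberg adjustment over all genes, and adjusted p under 0.05 was called. Fold changes on this scale understate those of low genes. Each of the 6 comparisons used its own 6 mice. Genotype, memantine and interaction used all 12. Of 19312 genes, 19295 matched GENCODE M21 (GRCm38), from which positions, sequences and shared words of 31 bases were taken. Adding each chromosome 1 copy to its gene was chosen after seeing the data. The fits were tested on simulated data. The members and all lists were chosen with earlier results of these data known. Named genes were the members, other mitochondrial genes and their copies, Shank2, Polrmt, Tfam, Tefm, Lrpprc, Slirp, Pnpt1, Ppargc1a and any called gene of the mitochondrial expression lists, the 3 nuclear subunits with the smallest p in the genotype test, and the 10 genes most correlated with the members.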

Additional observations from a re-analysis of the deposited data

How the results depend on the processing

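The alternatives were another pseudocount, other minimum means, scaling to the nuclear sum, quantile normalization, no mean-variance trend, a replicate block, all mice in 1 fit, each mouse left out, and 2 added after seeing the data: copies summed, and the third WT-Veh and the third KO-Veh mouse both left out. Of 913 recomputed values, 228 and 373 values of single genes (without and with a mouse left out) and 217 other values were labelled unchanged. For single genes this meant the same direction and side of the threshold, with values rounding to 0 at 2 decimals taken as either direction. Counts had to be equal or within 1.5 times, and the KO to WT ratio of the members' share within its SD. Genes without a listed copy entered both as listed and with copies summed, with the same fold changes, so the totals hold repeated values. Where values changed, the cause was not tested. Counts of members called in KO-M/WT-V, 2 as reported, were 1 with nuclear sum scaling, 1 with quantile normalization, 0 with no trend, 5 with all 12 mice in 1 fit and 1 with copies summed. Those of the genotype test, 4 as reported, were 2 with quantile normalization and 1 with no trend. Leaving out 1 mouse gave 0 to 4 members in KO-M/WT-V, 0 to 3 in Mem-K/W, 0 to 1 in WT-M/V and 2 to 4 in the genotype test, and with copies summed 0 to 4, 0 to 2, 0 to 0 and 2 to 5. Over all genes the genotype test called 1907 genes, 694 without the third KO-Veh mouse and 2683 without the third KO-Mem mouse. Without both the third WT-Veh and the third KO-Veh mouse it called 636. KO-M/WT-V called 595 genes, 7 with no trend, 2067 with all mice in 1 fit and between 1 and 2490 with a mouse left out, and Mem-K/W called 12, 636 with all mice in 1 fit, 4 with no trend and up to 1911. Without 1 mouse KO-M/V called up to 97 genes and Veh-K/W up to 53, against 0 and 5.

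mt-Co3 in the genotype test, 0.0015 as listed, was -0.22 with copies summed and -0.12 to 0.16 with a mouse left out. Over the 9 comparisons, summing copies turned the sign of 14 of 90 member values, 7 of mt-Co3, 4 of mt-Co2 and 3 of mt-Atp6. Among the changes of sign were those for mt-Co2 in the genotype test with copies summed (-0.19) and with a mouse left out (-0.20 to 0.38), for mt-Co3 in WT-M/V with copies summed (-0.16), in Veh-K/W with copies summed for mt-Co2 (0.35 to -0.28) and mt-Co3 (0.14 to -0.28), and under quantile normalization for mt-Cytb (0.0095) and mt-Nd5 (0.10) in the genotype test, mt-Nd4 in Veh-K/W (0.031) and mt-Cytb in Mem-K/W (0.028). Quantile normalization took the listed member median from -0.17 to -0.01 in the genotype test and from -0.30 to -0.06 in KO-M/WT-V. In WT-M/V the median went from -0.20 to -0.05. In Veh-K/W this scaling left 4 members higher, mt-Co1 and mt-Cytb at 0 and the others lower. It sets the gene at each rank to 1 value in every mouse, so by construction it removes any difference of mt-Co1, which ranks first. mt-Cytb, mt-Nd4 and mt-Nd5, at ranks 3, 6 and 11 by mean, can then differ only through a change of rank. For these members it cannot decide whether the level differs. Scaling to the nuclear sum left the listed member median at -0.29 in Veh-K/W and at -0.12 in Mem-K/W. Mice with the same replicate number did not deviate together (r from -0.18 to 0.08 over 18 pairs, -0.14 to 0.18 for other pairs), so no pairing by number was visible. A pairing with a small effect on these values would not show in this check. A replicate block gave 3 members and 999 genes in KO-M/WT-V and 4 members and 1825 genes in the genotype test, and it called no member elsewhere. Sequencing depth could not be recovered from these values, so no counting error is given.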
